A study of Mus musculus with 8 samples.

Results

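Cytochrome P450 genes were examined in tumor cells sorted from breast cancer brain metastases (BCBM) of mice by their level of E-cadherin. The members were all protein-coding genes of the deposited count table whose symbol is Cyp followed by a number, a letter and a number, which gave 91 of the 31894 genes with an identifier. The family was chosen on the E-cadLO to E-cadHI comparison itself, because Cyp3a57 and Cyp2b10 had the largest differences among its members. The values of the members in that comparison are therefore a description, with no test. Symbols with more letters (such as Cyp4a12a) and Cyp51 fall outside the rule, and 8 protein-coding genes of this kind were not counted as members.

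Each of 4 FVB mice, labelled 57, 58, 67 and 70 and given as wild type, yielded 1 E-cadHI and 1 E-cadLO library of its brain metastasis tumor. The cells of both groups came from mammary tumors of the PyMT model (polyoma middle-T antigen driven by the mouse mammary tumor virus promoter), were passed serially through mouse brains, kept as organoids and injected into the brain. Their E-cadherin bears an mCFP tag, a cyan fluorescent protein. Live cells positive for the nuclear label H2B-Dendra2 and low for tdTomato were gated first. From these, the mCFP-positive (E-cadHI) and mCFP-negative (E-cadLO) cells were collected. The paper sorted cells for re-injection from FVB hosts with the mTmG reporter, which expresses tdTomato. Its text does not say whether the hosts of the sequenced cells carried this reporter. The methods give host age only as a range over all mice of the study at injection, the labels name no treatment, and whether the 4 hosts received the same organoid line is not given in the sources used here.

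Cytochrome P450 enzymes hold a haem group and insert an oxygen atom from O2 into their substrate, with electrons passed on by P450 oxidoreductase in the endoplasmic reticulum or by ferredoxin in mitochondria. Families Cyp1 to Cyp3 are best known for the clearance of drugs and other foreign compounds, mostly in liver, gut and lung. Family Cyp4 hydroxylates fatty acids and their signalling derivatives, and the remaining families make or break down steroids, bile acids, vitamin D and retinoic acid. In brain, P450 genes act locally, for example in cholesterol removal from neurons and in the making of fatty acid epoxides by astrocytes.

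Levels are given as CPM, the count scaled to library size with the TMM factors of edgeR. The total count per library ranged from 9102781 to 15769200. A count of 3 was taken as the floor, which stands for 0.202 to 0.349 CPM. Cdh1, which encodes the sorted protein E-cadherin, had a within-mouse log2 ratio of E-cadLO to E-cadHI of -0.66, 0.46, -0.15 and -0.86 in mice 57, 58, 67 and 70. In mouse 58, Cdh1 was thus higher in the library labelled E-cadLO, and log2 fold changes without this mouse are given for Cyp3a57, Cyp2b10, Cyp3a13 and the Cyp2d members. Tumor epithelial markers were measured in all 8 libraries, with a summed level of 7524 to 10267 CPM in E-cadHI and 5616 to 14107 CPM in E-cadLO libraries.

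Cyp3a57 lies on chromosome 5, plus strand (145345279 to 145390926, GRCm38), and Cyp2b10 on chromosome 7, plus strand (25897620 to 25926624). The promoter windows of both are shown because these genes had the largest differences, and that of Cyp2f2 because it had the highest level of all members and differed the other way. Each window (GRCm38.p6) holds 250 bases before and 50 bases after the RefSeq start of a gene. This start differs from the position given above for Cyp3a57 and Cyp2b10. Of the 24 tested members, 18 had a window. Capitals mark matches, on either strand, to the TATA box letters (TATAAA), to the core bound by many nuclear receptors (AGGTCA), to the core bound by the aryl hydrocarbon receptor (GCGTG) and to the letters of the factor AP-1 (TGANTCA, where N is any base).
Cyp3a57, chr5:145345019-145345318, plus strand: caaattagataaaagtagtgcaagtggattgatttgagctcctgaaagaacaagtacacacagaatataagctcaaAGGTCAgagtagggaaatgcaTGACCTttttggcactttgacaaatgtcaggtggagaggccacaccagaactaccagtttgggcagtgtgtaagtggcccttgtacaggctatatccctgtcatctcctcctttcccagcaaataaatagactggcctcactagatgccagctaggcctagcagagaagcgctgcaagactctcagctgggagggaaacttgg
Cyp2b10, chr7:25897408-25897707, plus strand: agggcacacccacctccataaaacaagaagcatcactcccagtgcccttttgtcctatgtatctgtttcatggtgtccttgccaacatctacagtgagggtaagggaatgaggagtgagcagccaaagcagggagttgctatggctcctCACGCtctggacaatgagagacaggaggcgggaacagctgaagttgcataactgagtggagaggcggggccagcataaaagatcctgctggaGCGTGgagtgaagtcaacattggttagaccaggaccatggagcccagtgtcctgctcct
Cyp2f2, chr7:27119705-27120004, plus strand: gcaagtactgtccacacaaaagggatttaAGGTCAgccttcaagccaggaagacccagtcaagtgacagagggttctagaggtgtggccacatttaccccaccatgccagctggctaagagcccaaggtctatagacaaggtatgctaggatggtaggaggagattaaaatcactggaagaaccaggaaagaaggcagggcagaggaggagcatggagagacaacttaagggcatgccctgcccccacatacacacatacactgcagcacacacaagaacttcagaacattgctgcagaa

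The Cyp3a57 window held AGGTCA on the plus strand, starting 174 bases before the RefSeq start, and again on the minus strand from 153 bases before it. The Cyp2b10 window held GCGTG on the minus strand from 101 bases and on the plus strand from 9 bases before its RefSeq start. The nuclear receptor letters were not in this window. The 18 members had 21 windows, as Cyp4f14 had several. Over all windows, the letters AGGTCA were found in 16.3% of 32851 windows of this length. Among the members they were found in 2 of the 21 windows (9.52%), those of Cyp3a57 and Cyp2f2. GCGTG was found in 32.4% of all windows and in 8 of the 21 member windows (38.1%). TATAAA (13.6% of all windows) was found in Cyp26b1, Cyp2d9 and Cyp2d10, and TGANTCA (7.81%) in Cyp3a13, Cyp4b1 and Cyp4f16. The 4 letter strings do not overlap each other in the printed windows, and a match is no evidence of binding.

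Cyp3a57, of the subfamily whose enzymes clear many drugs and steroids, was at 3.42, 0.692, 0.446 and 2.46 CPM in the E-cadHI libraries of mice 57, 58, 67 and 70. In the E-cadLO libraries of the same mice it was at 160, 40.5, 71.9 and 24.3 CPM. Every E-cadLO library was above every E-cadHI library, and mouse 57 had the highest level in both groups. The counts behind these levels were 49, 9, 6 and 28 in E-cadHI and 2151, 348, 1068 and 348 in E-cadLO cells. Within a mouse, the level was 46.8-fold (mouse 57, exact 95% interval 35.3 to 63.5), 58.5-fold (mouse 58, 30.5 to 129), 161-fold (mouse 67, 73.8 to 440) and 9.89-fold (mouse 70, 6.73 to 15.1) higher in E-cadLO cells. These intervals cover counting error only. That of mouse 70 lay below those of mice 57, 58 and 67, and those of mice 57 and 67 did not overlap either. The fitted log2 fold change was 5.39 (standard error 0.82, n = 4 mice), 5.36 with the mouse as a block and 5.36 without mouse 58. In bulk RNA, more cells that express a gene and more RNA per cell cannot be told apart.

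Cyp2b10, known as a phenobarbital-induced gene of the liver, was at 2.23, 0.154, 0.223 and 0.176 CPM in the E-cadHI libraries of mice 57, 58, 67 and 70. The E-cadLO libraries held 28.0, 14.2, 32.2 and 7.34 CPM. The groups did not overlap, and the E-cadHI library of mouse 57 stood above the other E-cadHI libraries. Only 2, 3 and 2 counts were found in the E-cadHI libraries of mice 58, 67 and 70, so that the ratios there have wide exact intervals. They were 92.3-fold (25.0 to 771), 145-fold (49.2 to 704) and 41.8-fold (11.3 to 350), against 12.6-fold (8.74 to 18.6) in mouse 57. The fitted log2 fold change was 4.83 (standard error 0.96), 5.36 with the block, 6.52 without mouse 57 and 4.66 without mouse 58, and with 2 CPM in place of 0.5 CPM added the mean within-mouse log2 ratio was 2.95 instead of 4.23.

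Cyp3a57 and Cyp2b10 are not near-copies, since their coding sequences are identical at 62% of aligned bases. The closest relatives of Cyp3a57 were Cyp3a59 (94.2%) and Cyp3a25 (93.9%), and 2.71% of its 65-base windows, the length of a read, also occur in other genes. For Cyp2b10 the closest relative was Cyp2b13 (88.9%), with 4.66% of its windows shared. The highest count in any library was 5 or less for Cyp3a16, Cyp3a44, Cyp3a25 and Cyp3a59, 8 for Cyp3a11 and 16 for Cyp2b13. The relatives thus held few counts. How the authors treated reads that match several genes is not stated.

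**Figure D1:**
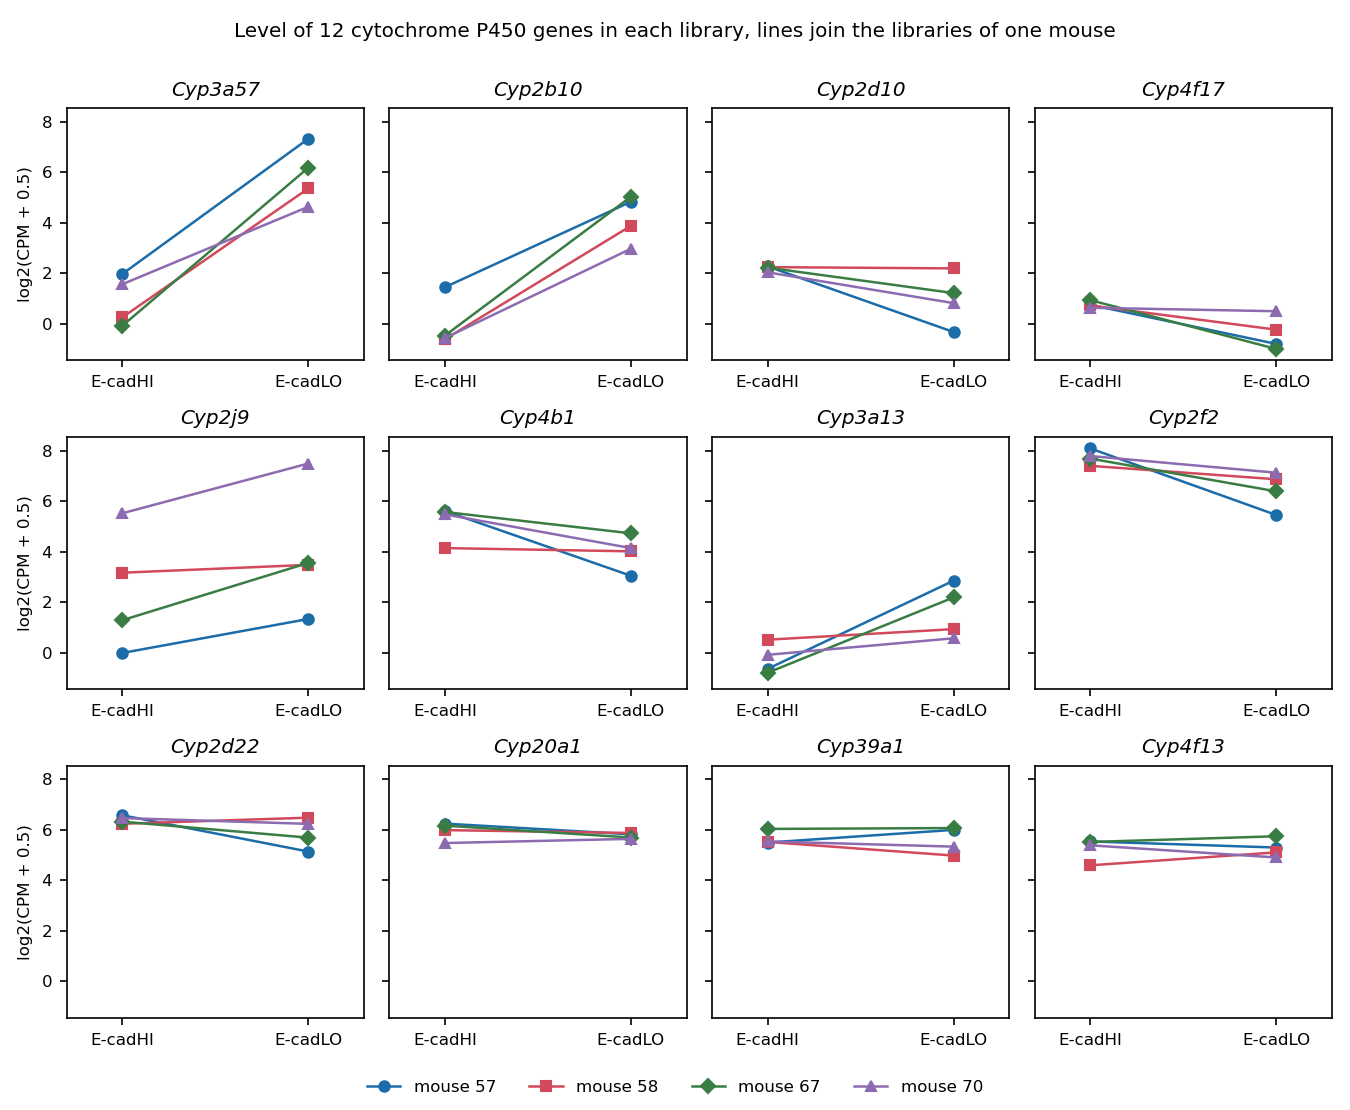
Level of 12 P450 genes as log2(CPM + 0.5) on a shared axis, with E-cadHI libraries left and E-cadLO libraries right in each panel and a line joining the libraries of a mouse. Cyp3a57 and Cyp2b10 are higher in E-cadLO cells in 4 of 4 mice without overlap of the groups, and Cyp2f2, the member at the highest level, is lower in 4 of 4.

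Among the other members of the drug-clearing families, Cyp3a13 followed Cyp3a57 and Cyp2b10 in size of the difference. Its level was 0.139, 0.922, 0.0743 and 0.439 CPM in the E-cadHI libraries of mice 57, 58, 67 and 70. In the E-cadLO libraries it was 6.69, 1.40, 4.04 and 0.978 CPM. The groups did not overlap, but the gap was narrow, since the lowest E-cadLO library (mouse 70) held 14 counts and the highest E-cadHI library (mouse 58) 12, and the E-cadHI libraries of mice 57 and 67 were under the floor. The log2 fold change was 3.04 (standard error 0.92), and it ranged from 2.14 without mouse 57 to 4.17 without mouse 58. Cyp3a13 lies on the same chromosome as Cyp3a57 but outside its cluster (137892932 to 137921619), and its coding sequence and that of Cyp3a57 are identical at 76.8% of aligned bases.

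Cyp2f2, known for naphthalene activation in the club cells of the lung, had the highest level of all members. It was at 271, 168, 205 and 220 CPM in the E-cadHI libraries of mice 57, 58, 67 and 70, and at 43.2, 116, 83.1 and 139 CPM in the E-cadLO libraries. Every E-cadLO library was below every E-cadHI library, and mouse 57 held both the highest and the lowest value. With all mice, the log2 fold change was -1.18 (standard error 0.33), and it was -0.84 without mouse 57. Cyp2f2 shares the cluster of Cyp2b10 on chromosome 7. No 65-base window of Cyp2f2 occurs in another gene, while its exons overlap those of the annotated gene Gm15883.

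The Cyp2d subfamily, whose human counterpart clears many drugs, had 3 tested members of 7, which were higher in no more than 1 mouse each. Cyp2d22 was at 95.1, 75.2, 79.8 and 88.0 CPM in the E-cadHI and 34.8, 89.0, 51.2 and 75.0 CPM in the E-cadLO libraries of mice 57, 58, 67 and 70. The groups overlapped, as mouse 58 went the other way. Cyp2d10 was at 4.32, 4.23, 4.16 and 3.60 CPM in E-cadHI and 0.297, 4.07, 1.82 and 1.26 CPM in E-cadLO libraries. It was lower in 4 of 4 mice, by only 0.05 on the log2 scale in mouse 58 (log2 ratio -0.05), and the groups overlapped. Cyp2d9 was lower in 3 of 4 mice and its log2 fold change was -0.67 (standard error 0.45). Without mouse 58, the log2 fold changes were -1.83 for Cyp2d10 (-1.14 with all mice), -1.06 for Cyp2d9 and -0.70 for Cyp2d22 (-0.44 with all mice). Of the 65-base windows of Cyp2d10 and Cyp2d9, 27.3% and 15.6% also occur in other genes, so that their counts are uncertain.

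The Cyp2j subfamily makes epoxides of arachidonic acid, and Cyp2j9 is known as a brain-expressed member. Cyp2j9 was at 0.488, 8.45, 1.93 and 45.3 CPM in the E-cadHI libraries of mice 57, 58, 67 and 70. In the E-cadLO libraries it was at 2.01, 10.6, 11.2 and 179 CPM. It was higher in E-cadLO cells in 4 of 4 mice, yet the groups overlapped widely, because the mice differed more than the populations did. In the fit, the log2 fold change was 1.86 without the block (standard error 1.49) and 1.67 with it (standard error 0.37), and 1.13 without mouse 70. Cyp2j6 was higher in 3 of 4 mice, and its log2 fold change was 2.0 (standard error 1.35). Its highest level, 28.7 CPM, was found in the same E-cadLO library of mouse 70.

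The other tested members of these families were Cyp1b1, which activates polycyclic hydrocarbons and oestrogens, and Cyp2u1, a fatty acid hydroxylase. Cyp1b1 was at 8.84 to 17.0 CPM in the 4 E-cadHI and at 10.1 to 10.9 CPM in 3 E-cadLO libraries. The E-cadLO library of mouse 57 stood apart at 84.2 CPM, and the log2 fold change of 1.17 changed sign to -0.16 without this mouse. Cyp2u1 stayed between 0.135 and 1.63 CPM.

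Family Cyp4 had 7 tested members of 16. Cyp4b1, known for fatty acid hydroxylation in the lung, was at 48.2, 17.1, 46.9 and 43.9 CPM in the E-cadHI and 7.73, 15.6, 25.9 and 17.1 CPM in the E-cadLO libraries of mice 57, 58, 67 and 70. It was lower in 4 of 4 mice (log2 fold change -1.23, standard error 0.42), and the groups overlapped because the E-cadHI library of mouse 58 was low. Cyp4f17 was at 1.18, 1.15, 1.41 and 1.05 CPM in E-cadHI and 0.0743, 0.349, 0 and 0.909 CPM in E-cadLO libraries, with no overlap. This rests on 12 to 19 counts per E-cadHI library and on 1, 3, 0 and 13 counts in the E-cadLO libraries. Cyp4f13 was at 46.1, 23.7, 45.4 and 41.4 CPM in E-cadHI and 38.9, 34.0, 53.2 and 29.5 CPM in E-cadLO libraries, higher in 2 mice and lower in 2.

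Within the Cyp4f subfamily, which hydroxylates leukotrienes and long fatty acids, the members therefore did not move together. Cyp4f18, the leukotriene hydroxylase of myeloid cells, was at a log2 fold change of 1.66 (standard error 0.83), higher in 3 of 4 mice. Cyp4f14 was at its highest in the E-cadLO library of mouse 70 (13.3 CPM), and its log2 fold change of 1.43 shrank to 0.14 with the block. The log2 fold change of Cyp4f16 was 0.17 (standard error 0.37), with 12.6% of its windows shared with other genes, and that of Cyp4v3, linked in human to a corneal and retinal dystrophy, was 0.71 (standard error 0.64). Cyp4f17 lies beside Cyp4f16, Cyp4f13 and Cyp4f14 in a cluster of 8 members on chromosome 17 (32468462 to 32947402), and had the only negative fold change beyond 1 on the log2 scale there.

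Of the members that act on sterols, vitamins and retinoids, 5 were tested (Cyp7b1, Cyp24a1, Cyp26b1, Cyp39a1 and Cyp46a1), and none of them had the same sign in 4 of 4 mice. Cyp39a1, an oxysterol hydroxylase, was at 44.7, 45.5, 65.2 and 46.1 CPM in the E-cadHI and 63.5, 31.1, 66.8 and 39.9 CPM in the E-cadLO libraries of mice 57, 58, 67 and 70, and its log2 fold change was 0.00 (standard error 0.27). Cyp20a1, whose substrate is not known, was at 75.5, 63.1, 71.4 and 44.1 CPM in E-cadHI and 56.2, 58.3, 51.4 and 49.5 CPM in E-cadLO libraries. The groups overlapped for both genes.

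Cyp24a1, which inactivates vitamin D, was lower in 3 of 4 mice (log2 fold change -1.85, standard error 1.01), and its exons overlap those of Pfdn4. Cyp26b1, which breaks down retinoic acid, was lower in 3 of 4 mice (log2 fold change -0.30, standard error 0.76). Cyp46a1, the cholesterol hydroxylase of neurons, was higher in 3 of 4 mice (log2 fold change 1.11, standard error 1.09) and had no count in the E-cadLO library of mouse 57. Cyp7b1, which hydroxylates oxysterols, was lower in 3 mice and higher in mouse 70, and its log2 fold change of 0.60 became -1.13 without mouse 70.

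**Figure D2:**
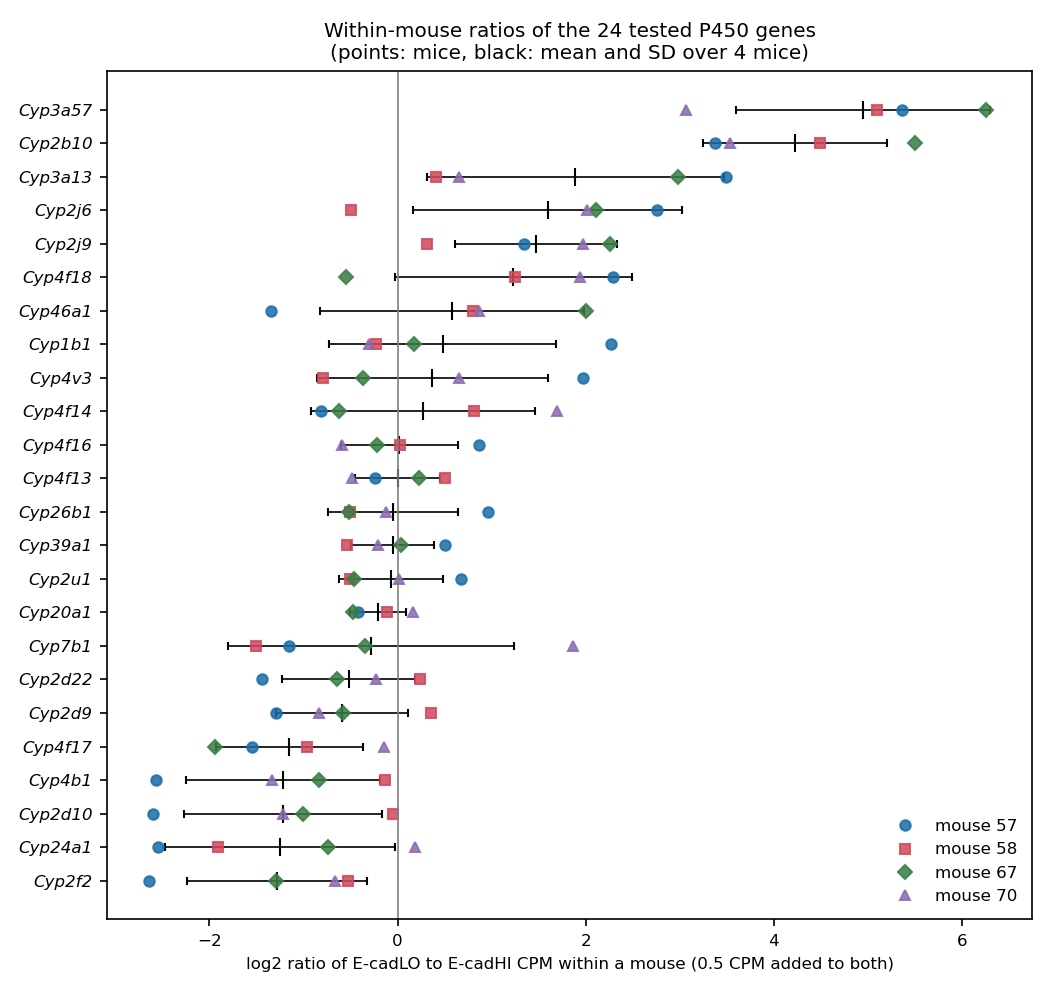
Within-mouse log2 ratio of E-cadLO to E-cadHI CPM (0.5 CPM added to both) for the 24 tested P450 genes, ordered by their mean, with a symbol per mouse and the mean and SD over 4 mice in black. Means run from -1.28 for Cyp2f2 to 4.95 for Cyp3a57, and 16 genes have mice on both sides of 0 (grey line).

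Over the 24 tested members, 4 were higher in E-cadLO cells in 4 of 4 mice (Cyp3a57, Cyp2b10, Cyp3a13 and Cyp2j9), which is 16.7%, against 16.8% of all 13598 genes tested. Likewise 4 were lower in 4 of 4 mice (Cyp2f2, Cyp4b1, Cyp2d10 and Cyp4f17), against 14.2% of all genes. All E-cadLO libraries were above all E-cadHI libraries for 3 members (Cyp3a57, Cyp2b10 and Cyp3a13), with 3.90% of all genes doing so, and below them for 2 (Cyp2f2 and Cyp4f17), with 4.20% of all genes. The median log2 fold change was 0.15 over the tested members and 0.06 over all genes. By mouse, the median log2 ratio of the members was 0.13, -0.08, -0.41 and 0.09 in mice 57, 58, 67 and 70, against 0.02, 0.00, 0.02 and 0.07 over all genes.

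No member was called at an adjusted p under 0.05 by edgeR's quasi-likelihood test without the block, nor was any gene (0% in either direction). At an unadjusted p under 0.05, 3 members were higher and 2 lower in that fit. With a replicate block for the mouse, 2 members were called higher (Cyp3a57 and Cyp2b10) and 0 lower, with 0.728% of all genes called higher and 0% lower. DESeq2 without the mouse called the same 2 higher and Cyp2f2 lower (2.31% and 0.473% of all genes). DESeq2 with the replicate block called 5 higher, adding Cyp2j6, Cyp2j9 and Cyp3a13, and 2 lower, Cyp2f2 and Cyp4b1 (7.72% and 1.69% of all genes). Without a filter on low counts, edgeR called 2 higher (0.0764%). Since these genes were picked on this contrast, nothing is read from the counts of calls.

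In the blocked fit, the calls depended on single mice, in a set of fits chosen after seeing the data. Leaving out mouse 57 gave 3 members called higher (Cyp3a57, Cyp2b10 and Cyp2j9, with 3.06% of all genes) and Cyp2f2 lower (0.173%). Leaving out mouse 58 gave Cyp3a57 and Cyp2j9 higher (0.462%) and none lower (0.0220%), and leaving out mouse 70 gave Cyp3a57 alone (0.0149%). Leaving out mouse 67 gave no call (0%). The log2 fold change of Cyp3a57 without the block stayed between 5.14 and 5.90 when any mouse was left out.

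**Figure D3:**
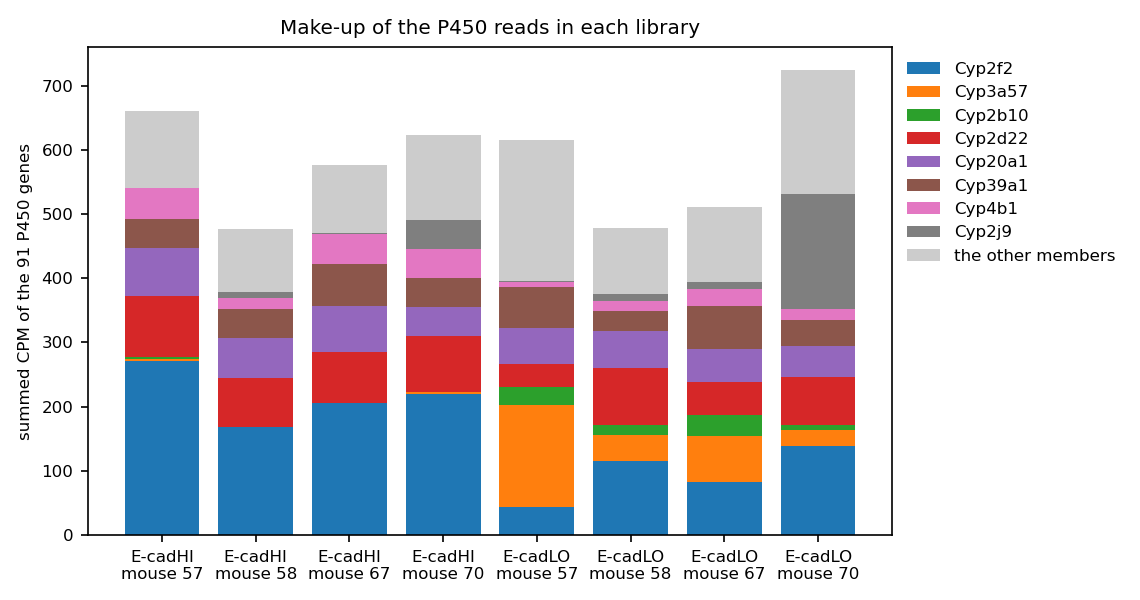
Summed CPM of the 91 P450 genes in each of the 8 libraries. Coloured parts of the bar are Cyp2f2, Cyp3a57, Cyp2b10, Cyp2d22, Cyp20a1, Cyp39a1, Cyp4b1 and Cyp2j9, and the other members are light grey. The height is alike in both groups, while Cyp2f2 takes 35.3% to 41.1% of it in E-cadHI and 7.02% to 24.3% in E-cadLO libraries.

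The summed level of the 91 members was 660, 477, 576 and 623 CPM in the E-cadHI libraries of mice 57, 58, 67 and 70 and 615, 479, 512 and 723 CPM in their E-cadLO libraries. The ranges overlapped, and the make-up differed instead. Cyp3a57 took 0.0774% to 0.518% of the summed level in E-cadHI libraries and 3.36% to 26.0% in E-cadLO libraries. Per kb of exon, the mean level in E-cadHI libraries was highest for Cyp2f2 (107 CPM per kb, range 83.2 to 134), clear of Cyp20a1 (27.8), Cyp2d22 (21.6), Cyp4b1 (17.3) and Cyp39a1 (16.5). From Cyp20a1 to Cyp39a1, each range overlapped with the next in order, while Cyp39a1 (14.7 to 21.3) was apart from Cyp4f13 (5.33 to 10.4). Cyp3a57 ranked 14 of 24 in E-cadHI libraries, with 0.879 CPM per kb (0.224 to 1.71), and Cyp2b10 ranked 21 with 0.329 (0.0728 to 1.06). In E-cadLO libraries their means were 37.2 (12.2 to 80.1) and 9.68 (3.47 to 15.3) CPM per kb, and that of Cyp2f2 was 47.1 (21.3 to 68.5).

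**Figure D4:**
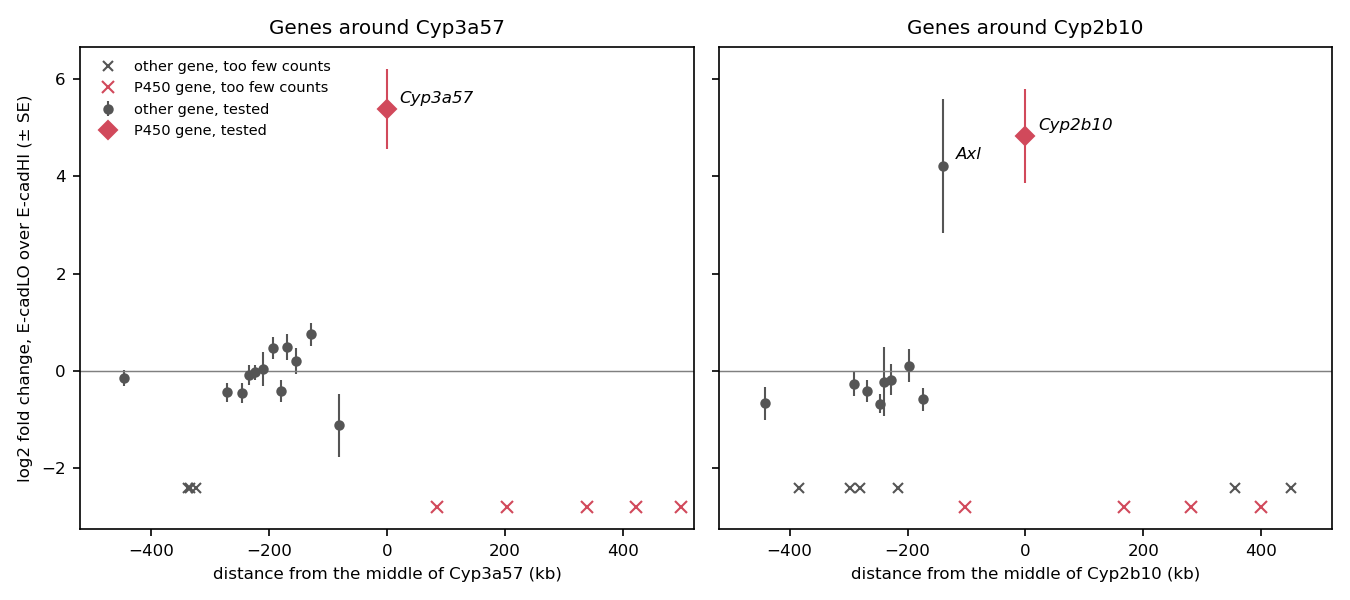
Log2 fold change (E-cadLO over E-cadHI, with standard error) of protein-coding genes against the distance of their middle from that of Cyp3a57 (left) or Cyp2b10 (right) in kb, with genes of too few counts as crosses below. Cyp3a57 stands alone among its neighbours (from -1.12 to 0.75), and near Cyp2b10 only Axl also exceeds 1.

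P450 genes lie in tandem clusters, and the 91 members fell into 32 groups when those under 500 kb apart were joined. Within 500 kb of Cyp3a57, 20 other protein-coding genes were found, 5 of them P450 genes (Cyp3a16, Cyp3a41a, Cyp3a41b, Cyp3a44 and Cyp3a11). None of these 5 had enough counts to be tested, and their highest count in any library was 8. The 12 tested neighbours had a median log2 fold change of -0.06 and ranged from -1.12 (Zscan25) to 0.75 (Zfp655). Within 500 kb of Cyp2b10, 4 of the 19 other genes were P450 genes (Cyp2s1, Cyp2b13, Cyp2b9 and Cyp2a4), with a highest count of 50, and none was tested. The 9 tested neighbours there had a median log2 fold change of -0.27. Axl, a receptor tyrosine kinase gene 139 kb away, had 4.22 (standard error 1.38) and 2.91 with the block, and the remaining 8 lay between -0.67 and 0.11. The within-mouse log2 ratio of Axl was 8.31 in mouse 57, whose E-cadLO library had the highest fibroblast marker sum, and 1.33, 2.58 and 0.98 in mice 58, 67 and 70. The members of the same subfamily beside Cyp3a57 and Cyp2b10 thus held few or no reads in both populations.

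**Figure D5:**
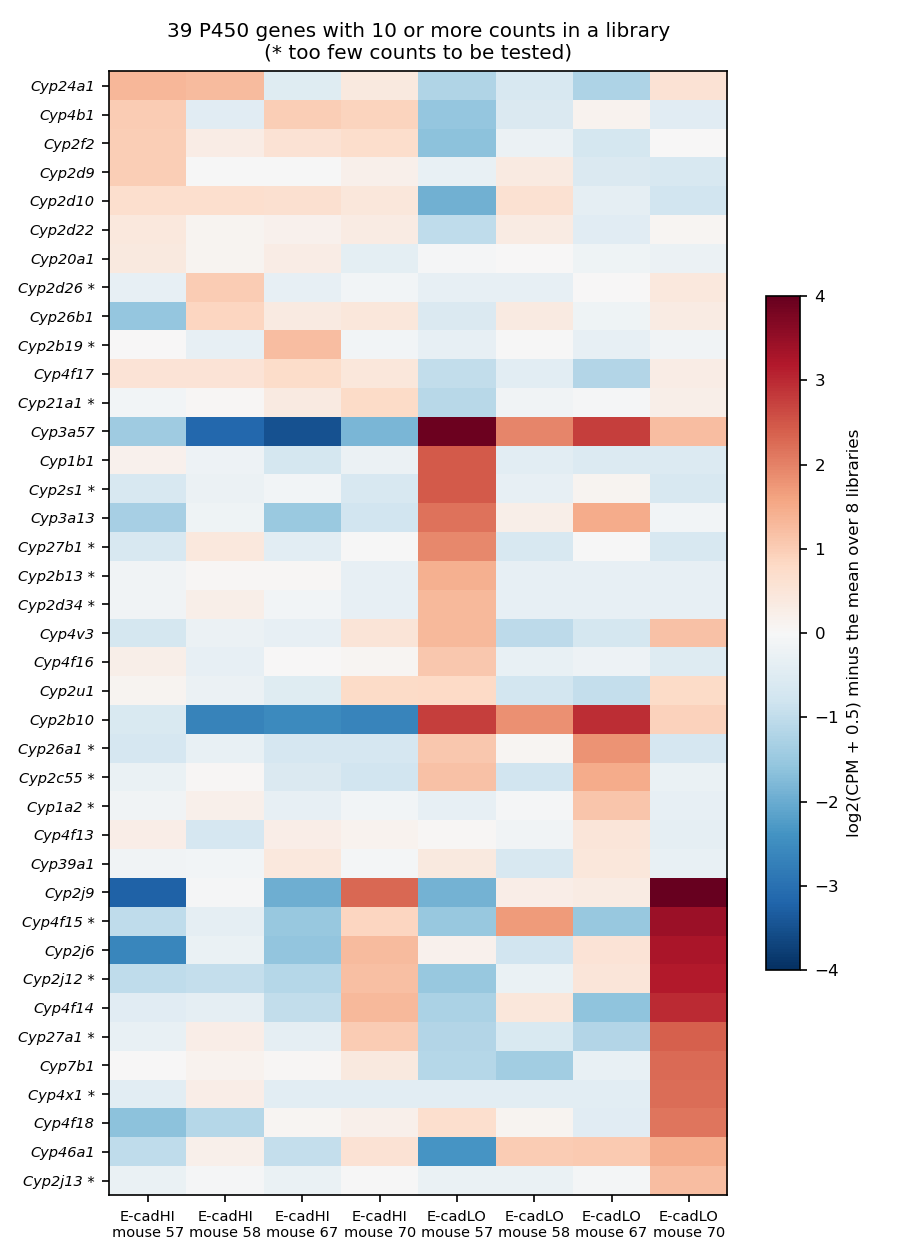
Level of the 39 P450 genes with 10 or more counts in a library, as log2(CPM + 0.5) minus the gene's mean over the 8 libraries (colour), with genes in lines ordered by the library of their highest level and untested genes marked with an asterisk. The E-cadLO library of mouse 70 holds the highest level of 11 genes and that of mouse 57 of 10.

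The remaining 67 members had too few counts to be tested, 32 of the 91 had at most 3 counts in every library, and Cyp2c40 and Cyp2r1 had none in any. Of the 15 members of the Cyp2c subfamily, a large liver group, only Cyp2c55 reached 10 counts in a library. None of the 4 members of Cyp2a or of Cyp4a did, nor did Cyp2e1, the ethanol-inducible liver enzyme, Cyp7a1, the rate-limiting enzyme of bile acid synthesis, or Cyp19a1, the aromatase. There were 15 untested members with 10 counts or more in a library, and most of these counts came from 1 or 2 libraries. Cyp2c55 had 19 and 28 counts and Cyp26a1, which breaks down retinoic acid, 16 and 34 in the E-cadLO libraries of mice 57 and 67, with 5 or fewer in each other library. Cyp2s1 (50 counts), Cyp27b1, the vitamin D activating enzyme (33), Cyp2b13 (16) and Cyp2d34 (14) peaked in the E-cadLO library of mouse 57. Cyp4f15 (212), Cyp2j12 (177), Cyp27a1, a bile acid enzyme (78), Cyp4x1 (38) and Cyp2j13 (13) peaked in that of mouse 70. Cyp1a2, a marker of aryl hydrocarbon receptor activity, had 13 counts in the E-cadLO library of mouse 67, Cyp21a1, an adrenal enzyme, up to 15 in libraries of both groups, Cyp2b19 13 in the E-cadHI library of mouse 67 and Cyp2d26 10 in that of mouse 58.

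The libraries in which several members peaked also differed in markers of other cells. The E-cadLO library of mouse 70, highest for 11 members (Cyp2j6, Cyp2j9, Cyp2j12, Cyp2j13, Cyp4f14, Cyp4f15, Cyp4f18, Cyp4x1, Cyp7b1, Cyp27a1 and Cyp46a1), had a summed level of 10139 CPM for 10 astrocyte markers and 34664 CPM for 10 oligodendrocyte markers. In the other 3 E-cadLO libraries the sums were 762 to 2045 and 1348 to 4374 CPM, and in E-cadHI libraries 1198 to 3666 and 608 to 8698 CPM, highest in mouse 70. The E-cadLO library of mouse 57, highest for 10 members (Cyp1b1, Cyp2b13, Cyp2d34, Cyp2s1, Cyp2u1, Cyp3a13, Cyp3a57, Cyp4f16, Cyp4v3 and Cyp27b1), had a summed level of 1513 CPM for 10 fibroblast markers. The other libraries had 7.58 to 51.2 CPM. Among E-cadLO libraries, Cyp3a57 was highest in mouse 57 and Cyp2b10 in mouse 67, and both were lowest in mouse 70. The part of astrocytes, oligodendrocytes and fibroblasts in the levels was not tested.

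Markers of other cells also differed between the groups, and their part in the members' differences was not tested. The sum of 12 microglia markers was 61.8 to 159 CPM in E-cadHI and 162 to 521 CPM in E-cadLO libraries, 10 of the 12 were higher in 4 of 4 mice, and P2ry13, Siglech and Fcrls were at 0 in a library. For 10 macrophage and monocyte markers the sums were 489 to 1151 and 214 to 805 CPM, with 5 of 8 tested higher in 4 of 4 mice. Most of these sums came from Cd14 (447 to 1078 and 144 to 535 CPM), which was lower in 4 of 4 mice, as was Cd163. For 10 neuron markers the sums were 30.9 to 154 and 49.3 to 525 CPM, with 5 of 9 tested higher in 4 of 4 mice. Astrocyte, oligodendrocyte and fibroblast markers were higher in 4 of 4 mice for 6 of 10, 5 of 10 and 3 of 7 tested. Endothelial sums were 41.6 to 77.6 and 62.2 to 109 CPM, mural sums 27.4 to 73.8 and 31.9 to 180 CPM, neutrophil sums 15.9 to 25.4 and 12.1 to 27.8 CPM and lymphocyte sums 0.0697 to 2.23 and 0.149 to 14.4 CPM. Of the 10 hepatocyte markers, 8 were at 9 counts or fewer in every library, among them Alb (at most 5), and the sums of 347 to 814 and 114 to 1269 CPM came almost wholly from Ttr and Trf, which the brain also expresses. Ttr was higher in 4 of 4 mice (log2 fold change with the replicate block 2.77, adjusted p = 0.0239, edgeR) and Trf lower in 4 of 4.

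The partners that pass electrons to P450 enzymes, their regulators and the genes of haem supply were compared as lists, and each adjusted p below is from edgeR (quasi-likelihood fit), corrected by Benjamini-Hochberg over all genes. All 10 redox partners were tested and none was called in either direction with or without the block (median log2 fold change -0.15). Por, the P450 oxidoreductase, was at 65.8 to 81.1 CPM in E-cadHI and 59.6 to 123 CPM in E-cadLO libraries, and differed by 0.24 on the log2 scale (standard error 0.23, adjusted p = 0.604). Of 25 regulators, 16 were tested and none was called (median 0.20).

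Nr1i2, the receptor PXR that induces Cyp3a genes in liver, was at 0.263 to 1.88 CPM in E-cadHI and 0.116 to 2.60 CPM in E-cadLO libraries (log2 fold change 0.30, standard error 0.86, adjusted p = 0.878). Nr1i3, the receptor CAR that induces Cyp2b10 in liver, had at most 7 counts in a library and was not tested. Ahr, the aryl hydrocarbon receptor, was at 13.6 to 15.8 CPM in E-cadHI libraries and at 5.50, 21.5, 37.8 and 16.1 CPM in the E-cadLO libraries of mice 57, 58, 67 and 70 (log2 fold change 0.43, adjusted p = 0.658). Rxra, the partner of PXR and CAR, was lower in 4 of 4 mice (log2 fold change -0.62, standard error 0.27, adjusted p = 0.345). The transcripts of the receptors best known to induce Cyp3a and Cyp2b genes were thus at 2.60 CPM (Nr1i2) and 0.489 CPM (Nr1i3) at most.

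Among the 11 haem genes, all tested, only Hmox1 was called, and only with the replicate block. Hmox1, the inducible haem oxygenase that breaks haem down, was at 15.4, 10.9, 13.9 and 19.6 CPM in the E-cadHI and 44.9, 33.6, 29.0 and 48.9 CPM in the E-cadLO libraries of mice 57, 58, 67 and 70. The groups did not overlap, and the log2 fold change was 1.39 (standard error 0.20, adjusted p = 0.0330 with the block, and adjusted p = 0.204 without it). In the blocked fits without mouse 58, 67 or 70, no haem gene was called. Alas2, the erythroid first enzyme of haem synthesis, was higher in 4 of 4 mice (log2 fold change 1.57, adjusted p = 0.412). The median over the 11 was -0.16.

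Of 17 target genes of the same receptors outside the Cyp family, 14 were tested and none was called (median log2 fold change -0.22). Tiparp, a target of the aryl hydrocarbon receptor, differed by 1.39 on the log2 scale (standard error 0.31, adjusted p = 0.251) and Gadd45b, a target of CAR, by 1.49 (standard error 0.33, adjusted p = 0.251), each higher in 4 of 4 mice. Aldh1a1, a retinaldehyde dehydrogenase, was also higher in 4 of 4 (2.05, adjusted p = 0.568), with 162 CPM in the E-cadLO library of mouse 70. Ephx1 (-0.75, adjusted p = 0.282) and Crabp2 (-0.90, adjusted p = 0.262) were lower in 4 of 4 mice. Target genes therefore lay on both sides of 0, and none of these differences passed the test in this fit. DESeq2 called Hmox1, Tiparp and Gadd45b higher and Crabp2 lower, and with the block also Alas2 and Aldh1a1 higher and Ephx1 lower.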

How the data were processed

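Bulk mRNA of E-cadHI and E-cadLO cells sorted from the BCBM of 4 mice was sequenced as single 65-base reads. The authors mapped these with HISAT2 2.1.0 to GRCm38 and deposited whole-number counts per gene without normalization (the methods name Icount, the submitters' processing notes HTSeq). Strand and the handling of reads that match several genes are not given in the sources used here. Of 32259 entries, 365 without an identifier (0.0636% to 0.0954% of counts) were left out.

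From the counts, edgeR 4.0.16 in R 4.3.3 (TMM, filterByExpr by group, quasi-likelihood test, Benjamini-Hochberg adjustment over 13598 genes) compared the 4 libraries of each group, without the mouse as the main fit. Tests across genes were tested on simulated data. Alternatives were a replicate block, DESeq2 1.42.0, its size factors, no filter, at least 10 counts in every library, another pseudocount and each mouse left out. Labels give both libraries of a mouse its number, and their deviations from the group means correlated at 0.352, 0.275, 0.309 and 0.698. Each mouse is a separate animal, so the spread is between animals.

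CPM are scaled counts and ratios use CPM plus 0.5. Exon lengths, read-length windows and coding sequences come from GENCODE M21 (GRCm38), promoters from RefSeq, and identity from Biopython 1.88. Protein sequences were not used here, so identity was taken over coding bases. All members that passed the filter are named. Values per library are given for Cyp3a57, Cyp2b10, members with 1 sign in 4 of 4 mice and a mean log2 ratio of at least 1 in size, and the 5 with the highest mean CPM. Untested members are named from 10 counts in a library, except where counted by subfamily. Listed genes are named where an alternative fit called them, apart from some that are not reported here, with Nr1i2, Nr1i3, Ahr, Rxra and Por. The neighbours Axl, Zscan25 and Zfp655 and the liver genes named at low counts were singled out after their values were seen. The members and lists were chosen with earlier results of these data known.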

Additional observations from a re-analysis of the deposited data

Results flagged for a closer look

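Levels of the 24 tested members in both groups and their within-mouse log2 ratios gave 72 groups of 4 values. By Dixon's criterion, the highest or lowest value lay far from the other 3 in 11 of them. A rate of about 1 in 20, or 3.60 groups, would hold for independent values with a normal spread. Levels in CPM need not have such a spread, and the genes of a library are not independent. No excess over chance is therefore read from the 11. All 11 were levels in CPM, and 9 of them were a library of mouse 57 or 70. In the E-cadLO library of mouse 57, Cyp1b1 was at 84.2 CPM (10.1 to 10.9 in the rest of the group) and Cyp4f16 at 49.8 CPM (15.9 to 19.9). In its E-cadHI library, Cyp2b10 was at 2.23 CPM (0.154 to 0.223) and Cyp2d9 at 8.71 CPM (4.15 to 4.92). In the E-cadLO library of mouse 70, Cyp2j9 was at 179 CPM (2.01 to 11.2), Cyp2j6 at 28.7 CPM (1.28 to 3.90), Cyp7b1 at 15.8 CPM (0.814 to 2.29) and Cyp4f14 at 13.3 CPM (0.0673 to 1.86). Cyp4f14 also stood apart in the E-cadHI library of mouse 70, at 3.78 CPM (0.372 to 0.845). In the E-cadHI group, Cyp39a1 was at 65.2 CPM in mouse 67 (44.7 to 46.1 in the rest) and Cyp4b1 at 17.1 CPM in mouse 58 (43.9 to 48.2).

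A signal outside the members was seen for the pseudogene Cyp4f41-ps (chromosome 17, 32951744 to 32958695), which lies beside Cyp4f13. It was at 3.86, 0.582, 1.82 and 1.19 CPM in the E-cadLO libraries of mice 57, 58, 67 and 70, above the 0.0743 to 0.488 CPM of all E-cadHI libraries. The counts were 52, 5, 27 and 17 against 7, 1, 1 and 2, so the E-cadHI values of mice 58, 67 and 70 are at or under the floor of 3 counts, and the gene was not tested.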

How the results depend on the processing

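Without the block, edgeR called 0 genes in either direction, also with DESeq2's size factors and with any mouse left out (0 to 0). More genes were called higher with DESeq2 (298, and 61 lower), without a filter (23), with at least 10 counts in every library (3), with the replicate block (99) and with DESeq2 and the replicate block (1030, and 225 lower). In blocked fits chosen after seeing the data, leaving out mouse 57, 58 or 70 gave 425, 63 and 2 higher and 24, 3 and 0 lower, and leaving out mouse 67 gave 0. Members called higher went from 0 to 2 with DESeq2, without a filter and with the block, to 5 with DESeq2 and the block, and to 3, 2 and 1 in the blocked fits without mouse 57, 58 or 70. Members called lower were 1 with DESeq2, 2 with DESeq2 and the block and 1 in the blocked fit without mouse 57. Counting all protein-coding Cyp symbols gave 0. Partner, regulator, haem and target genes called went from 0 to 3 higher and 2 lower with DESeq2, 1 higher with the block, 5 higher and 4 lower with DESeq2 and the block, and 2 higher in the blocked fit without mouse 57. Leaving out mouse 58, 67 or 70 in the blocked fit gave 0 of these genes in either direction, so that the call of Hmox1 was lost in each.

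Among members with at least 10 counts in every library (10 of 24, without Cyp3a57 and Cyp2b10), 0 were higher and 2 lower in 4 of 4 mice. With a mouse left out, 4 to 5 members were higher and 4 to 7 lower in the remaining mice, the 7 without mouse 70, where Cyp7b1, Cyp20a1 and Cyp24a1 joined. Of 222 fold changes of members under the alternatives, 215 moved by less than the SD between mice, and 17 of the 24 members kept their sign throughout. The sign changed somewhere for Cyp1b1, Cyp2u1, Cyp4f13, Cyp4f16, Cyp7b1, Cyp26b1 and Cyp39a1. The log2 fold change of Ahr ranged from -0.07 without mouse 67 to 0.69 without mouse 57, against 0.43 with all mice. The cause of these changes was not tested. With 4 mice and counts under 10 for many members, small differences in lowly expressed P450 genes were not detectable.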

Other observations

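Cyp51, the sterol demethylase of cholesterol synthesis, lies outside the symbol rule. It was at 133, 113, 92.0 and 103 CPM in the E-cadHI and 145, 92.8, 77.1 and 161 CPM in the E-cadLO libraries of mice 57, 58, 67 and 70. Among P450 genes only Cyp2f2 had a higher mean CPM in E-cadHI libraries, an order that is not corrected for gene length. The log2 fold change was 0.11 (standard error 0.25, adjusted p = 0.837, edgeR's quasi-likelihood test), higher in mice 57 and 70 and lower in the others. The remaining 7 protein-coding Cyp symbols outside the rule had at most 4 counts in a library.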
